A study of Tribolium castaneum with 2 samples.

Results

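Of the 2313 sequences of the red flour beetle (*Tribolium castaneum*) assembly that carried counts, 2137 are unplaced, which means that they were assembled but not joined to a linkage group. Described here are 1112 of these unplaced sequences, the members, which were chosen by their depth. A member had at least 30 listed positions and a median of 3 to 10 reads per listed position, with the reads of both replicates summed. Of the other unplaced sequences, 669 had a lower median, 330 had a higher one and 26 had fewer than 30 listed positions. The members were compared with the 163 sequences of LG2 to LG10, the linkage groups other than LG1.

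The counts come from whole genome bisulfite sequencing of genomic DNA from pooled eggs of the GA-2 line, which were 24 h to 48 h old and had received no treatment. There were 2 replicates of this 1 condition, so no treatment was compared. Each listed position of assembly version 3.0 had a number of unconverted reads and a number of converted reads in a replicate. Numbers of reads given for a sequence or a set are sums of these counts over positions. A sequencing read is thus counted once at each listed position that it covers. The labels do not say whether the replicates came from separate collections, so the spread between them may be technical.

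Bisulfite turns unmethylated cytosine into uracil, which is read as T, whereas methylated cytosine is still read as C. An unconverted read can therefore stem from methylation, from incomplete conversion or from a sequencing error. Sequences remain unplaced mostly where an assembly meets repeats such as satellite DNA, transposons or gene arrays, because reads from different copies cannot be told apart there. Repeats that are collapsed into fewer copies in an assembly collect the reads of all copies and appear deep. The base sequences of the members were not used here, and neither the strand nor the context of a position was known. No directly adjacent position was listed for 53.3% of the member positions and for 54.5% of those of LG2 to LG10. A neighbour may also be missing because it was not read, so this share alone does not decide the context. The list may still hold cytosines outside CpGs, and the rates given here may not be rates of CpGs.

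The members held 1678292 listed positions, which is 8.40% of all listed positions, and 14.6% of all reads. Replicate 1 contributed 6328469 reads and replicate 2 contributed 8001022 reads to them, with a read counted at every listed position it covers. LG2 to LG10 had 26744035 reads in replicate 1 and 35867814 reads in replicate 2. The distance from the first to the last listed position, called the span, had a median of 1640.5 bp in the members and of 601889 bp in LG2 to LG10. Member spans reached from 201 bp to 635559 bp. The set was uneven, because the 10 members with most positions held 21.8% of its listed positions and the 100 with most held 69.2%. The longest was LGUn_WGA185_2, which had 75010 listed positions between 34 and 635592, a median of 3 reads, and 114443 and 159916 reads in replicates 1 and 2.

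The median depth was the basis of the choice and is given without a test. A median of exactly 3 was found in 580 members, which is 52.2%, and in 131 sequences of LG2 to LG10. Another 31 sequences of LG2 to LG10 had a median of 2 and a median above 3 occurred there once, at 5 on LG7_WGA108_2. In contrast, 159 members, or 14.3%, had a median above 5. Just inside the lower limit were the 580 members at 3, and just outside it were 18 sequences at 2.5, such as LGUn_WGA1413_2 with 474 positions. At the upper limit 13 members had a median of 10, such as LGUn_WGA1236_2 with 2235 positions, and 19 sequences just outside had a median of 11, such as LGUn_WGA367_2 with 2824 positions.

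Means lay further apart than medians. The mean depth per listed position was 4.98 reads in replicate 1 and 5.67 in replicate 2 for the members, against 2.25 and 2.66 for LG2 to LG10. Summed over replicates this was 8.54 reads in the members and 3.82 in LG2 to LG10, while the median position had 3 reads in both. The mean of a sequence was at least 2 times its median in 495 members (44.5%) and in 3 sequences of LG2 to LG10. It was at least 5 times the median in 104 members and in 0 sequences of LG2 to LG10. Nevertheless, 818 members had a mean within the range of the LG2 to LG10 sequences, which was 3.23 to 10.9 reads, and 283 members lay above that range. Its upper end was set by LG7_WGA108_2 alone. Without this sequence the range ended at 7.89 reads, with 646 members within it and 455 above. The highest mean was 649.6 reads in LGUn_WGA1943_2, at a median of 7.

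**Figure D1:**
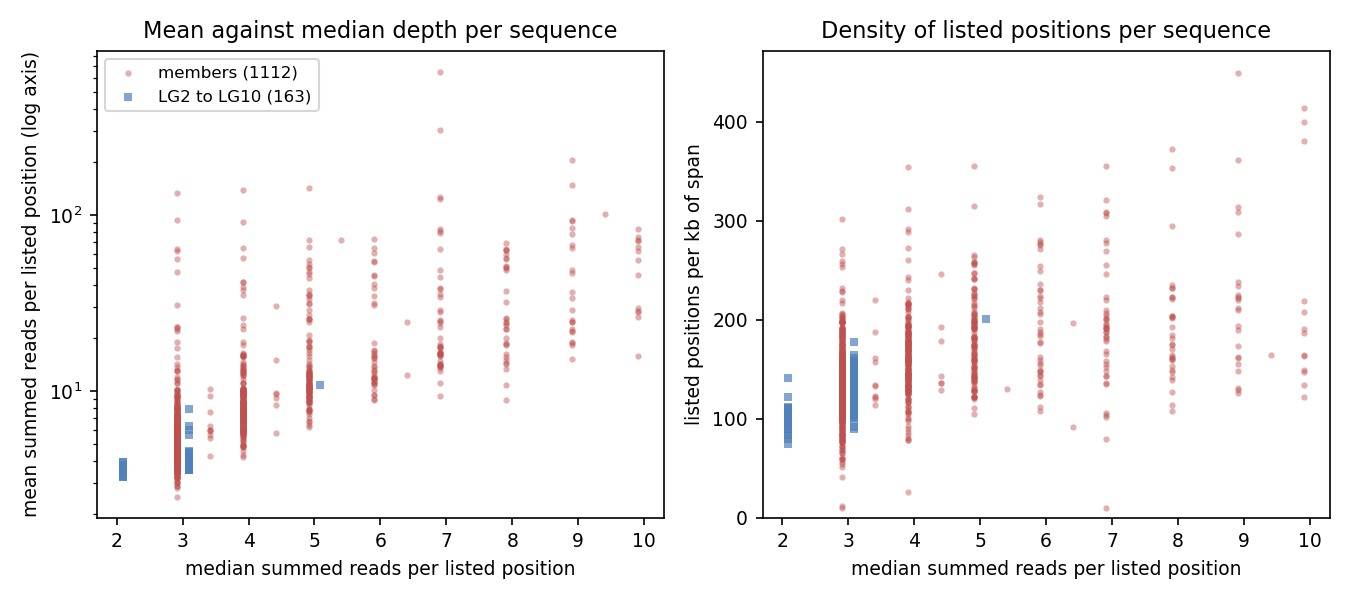
Mean summed reads per listed position (left, log axis) and listed positions per kb of span (right) against the median summed reads, with 1 point per sequence for 1112 members (circles, drawn slightly to the left of their median) and 163 sequences of LG2 to LG10 (squares, slightly to the right). Member means reach 649.6 reads, and density is spread from 9.48 to 449.6 per kb in the members and from 74.4 to 200.8 per kb in LG2 to LG10.

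The density of listed positions, compared with that on the linkage groups, depended on how it was averaged. The median density was 146 positions per kb of span in the members (quartiles 124 and 179) and 122 in LG2 to LG10 (quartiles 110 and 137). Counted over all bases of span, it was 126.3 per kb in the members and 125.6 in LG2 to LG10. At a median of exactly 3 reads, the median density was 131 per kb in the members and 129 in LG2 to LG10, but over all bases of span it was 113 in the members and 130.1 in LG2 to LG10. It was 159 per kb in the 251 members with medians of 3.5 to 4.5, 181 in the 167 with medians of 5 to 6.5 and 191 in the 114 with medians of 7 to 10. A position is listed only if it was read, so density and depth are not separate measures.

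The extremes of density had different surroundings. LGUn_WGA1007_2 was the densest with 449.6 positions per kb, within a span of 585 bp and at a median of 9 reads. LGUn_WGA1268_2 and LGUn_WGA2160_2 followed with 414.2 and 399.7 per kb. The 3 least dense members each contained 1 long stretch without a listed position. This stretch was 123322 bp in LGUn_WGA383_2 (9.48 per kb), 123395 bp in LGUn_WGA432_2 (9.83 per kb) and 120382 bp in LGUn_WGA332_2 (11.7 per kb). Outside it, their densities were 138, 193 and 158 per kb. Stretches of at least 500 bp without a listed position made up 11.0% of the span of the members and 4.91% of the span of LG2 to LG10.

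The reads of the members were concentrated at few positions. Positions with at least 50 summed reads, called deep, were 26398 in the members, which is 1.57% of their positions and 35.5% of their reads. In LG2 to LG10 they were 10073, which is 0.0615% of the positions and 2.05% of the reads. Deep positions occurred on 541 members (48.7%) and on 144 sequences of LG2 to LG10 (88.3%), whose spans are much longer. The share of deep positions was 0.292% in members with a median of 3 and 9.98% in those with medians of 7 to 10, against 0.0612% in LG2 to LG10 sequences with a median of 3.

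**Figure D2:**
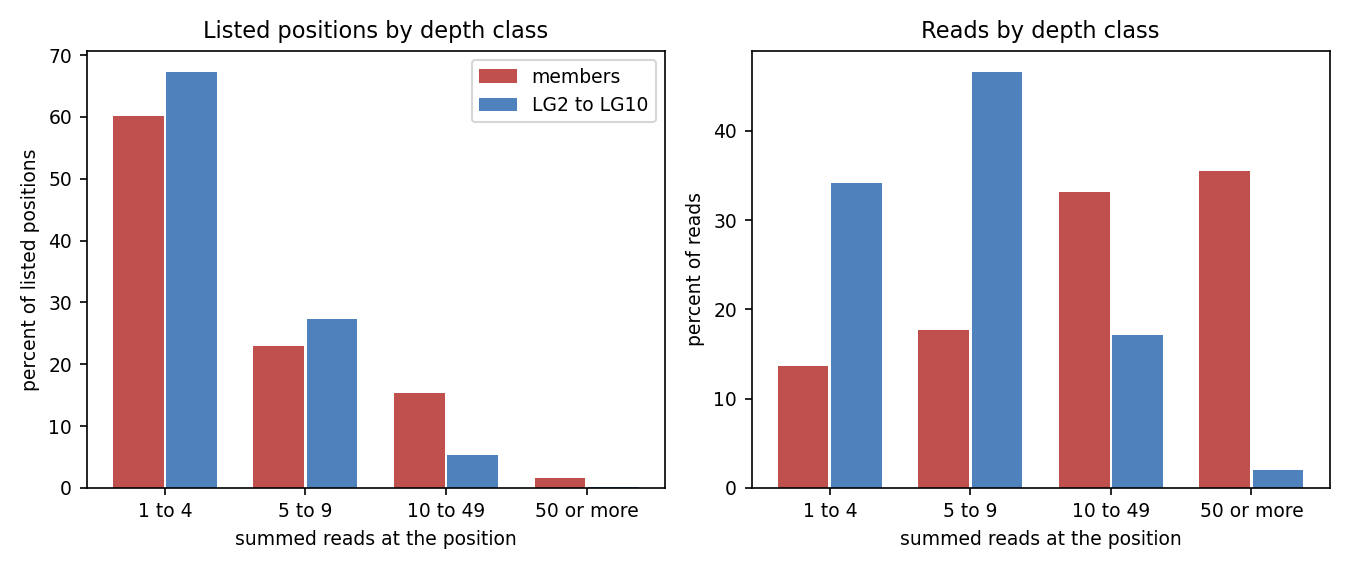
Percent of listed positions (left) and percent of reads (right) in 4 classes of summed reads per position, for members (red) and LG2 to LG10 (blue). The class with 50 or more reads holds 1.57% of positions and 35.5% of reads in the members, and 0.0615% and 2.05% in LG2 to LG10.

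Deep positions lay together. An island was defined as at least 3 deep positions with gaps of at most 100 bp. There were 1639 islands on 433 members, or 123 per Mb of span, with a median length of 95 bp and 39.4% of the reads. LG2 to LG10 had 869 islands on 132 sequences, or 6.66 per Mb, with a median length of 66 bp and 2.29% of the reads. Islands covered at least 50% of the span in 33 members. In members with a span of at least 5000 bp, 116 of 1113 islands (10.4%) lay within 500 bp of an end, compared with 34 of 869 (3.91%) in LG2 to LG10. Of all listed positions of these sequences, 3.20% in the members and 0.133% in LG2 to LG10 lay that close to an end, since member spans are shorter. Relative to their positions, islands were thus nearer to the ends in both sets, and more so in LG2 to LG10. These counts describe the depth by which the members were chosen and were not tested.

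The 5 members with most deep positions differed in how the depth was spread. LGUn_WGA275_2 had 1026 deep positions, which took 81.6% of its reads. Its largest island ran from 13992 to 18016 with 543 deep positions, 44150 reads in replicate 1 and 49773 in replicate 2. Outside the deep positions its median was 4 reads, which is near that of the linkage groups. LGUn_WGA669_2 had 627 deep positions with 84.0% of its reads and reached 14111 reads at position 14163. LGUn_WGA331_2 was deeper throughout instead. Its 655 deep positions held 18.0% of the reads, none exceeded 176 reads, and the median of its other positions was 7. LGUn_WGA382_2 had 767 deep positions in 38 islands and LGUn_WGA1389_2 had 670 in 31 islands.

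The deepest positions were on 4 members. At least 10000 summed reads were found at 12 positions, of which 5 were on LGUn_WGA1943_2, 5 on LGUn_WGA450_2 and 1 each on LGUn_WGA669_2 and LGUn_WGA668_2. Position 562 of LGUn_WGA1943_2 had 9835 reads in replicate 1 and 11681 in replicate 2, of which 1 and 7 were unconverted. Position 8080 of LGUn_WGA450_2 had 7737 and 9448 reads, of which 3 and 9 were unconverted. At both positions nearly all reads were converted in both replicates.

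Depth was also higher towards the ends of sequences. In the 306 members with a span of at least 5000 bp, the mean depth was 17.2 reads at 100 to 199 bp from an end and 7.28 reads at 1000 bp or more. In LG2 to LG10 it was 8.51 and 3.82 reads at these distances. Both sets thus had deeper ends, and in both the median changed by at most 1 read.

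Replicate 2 had more reads than replicate 1, and this surplus was smaller at deep positions. Over all reads, replicate 2 had 1.26 times the reads of replicate 1 in the members and 1.34 times in LG2 to LG10. The ratio was 1.34 at positions with 1 to 4 summed reads and 1.21 at deep positions in the members, and 1.36 and 1.22 in LG2 to LG10. Of 625 members with at least 2000 reads, 172 had a ratio below the lowest of LG2 to LG10 (1.20) and 18 had one above the highest (1.47). The range was that of all 163 LG2 to LG10 sequences, most of which had far more reads than a member. These counts were adjusted neither for the number of reads nor for depth, with which the ratio fell in both sets. LGUn_WGA1230_2 stood apart with 4078 reads in replicate 1 and 2223 in replicate 2, a ratio of 0.545.

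The listed positions of some members recurred at a fixed spacing. The repeat period was the lag, between 20 and 1000 bp, at which the list of positions matched itself best. It was called where this match exceeded the median match of all lags examined by at least 0.3 on a correlation scale. A period was found in 89 of the 1049 members with at least 100 positions, and in 0 of the 163 whole sequences of LG2 to LG10. Because the linkage group sequences are longer, windows of up to 5000 bp with at least 200 listed positions were examined as well. Many members are shorter than 5000 bp, so the windows of the 2 sets may still differ in length. A period was found in 137 of 2688 windows of the members (5.10%) and in 117 of 25363 windows of LG2 to LG10 (0.461%), where they lay on 46 sequences. The measure was chosen after the data had been seen, and no test was made.

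The same periods recurred on different members. A period of 166 bp was found in 14 members with 119.4 kb of span together, and one of 180 bp in 13 members with 156.5 kb. In windows, 166 bp was found 30 times in the members and 21 times in LG2 to LG10, and 180 bp was found 28 and 19 times. A period of 73 bp was found in 8 members. The 89 members did not share 1 depth: the means of the 14 members with 166 bp reached from 3.57 reads in LGUn_WGA1781_2 to 19.0 reads in LGUn_WGA1307_2.

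Depth differed between places within the period. LGUn_WGA1857_2 spanned 166.3 periods of 166 bp, and 20 of its 166 phases held 36.7% of its 5375 positions. Among phases listed in at least 30% of the copies, mean depth ranged from 1.74 to 18.2 reads. LGUn_WGA1969_2 spanned 200.0 periods of 180 bp, with 30.9% of its 6677 positions in 20 phases and means of 1.73 to 7.74 reads. LGUn_WGA1857_2 had 17977 and 22289 reads in replicates 1 and 2, of which 9 and 23 were unconverted.

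**Figure D3:**
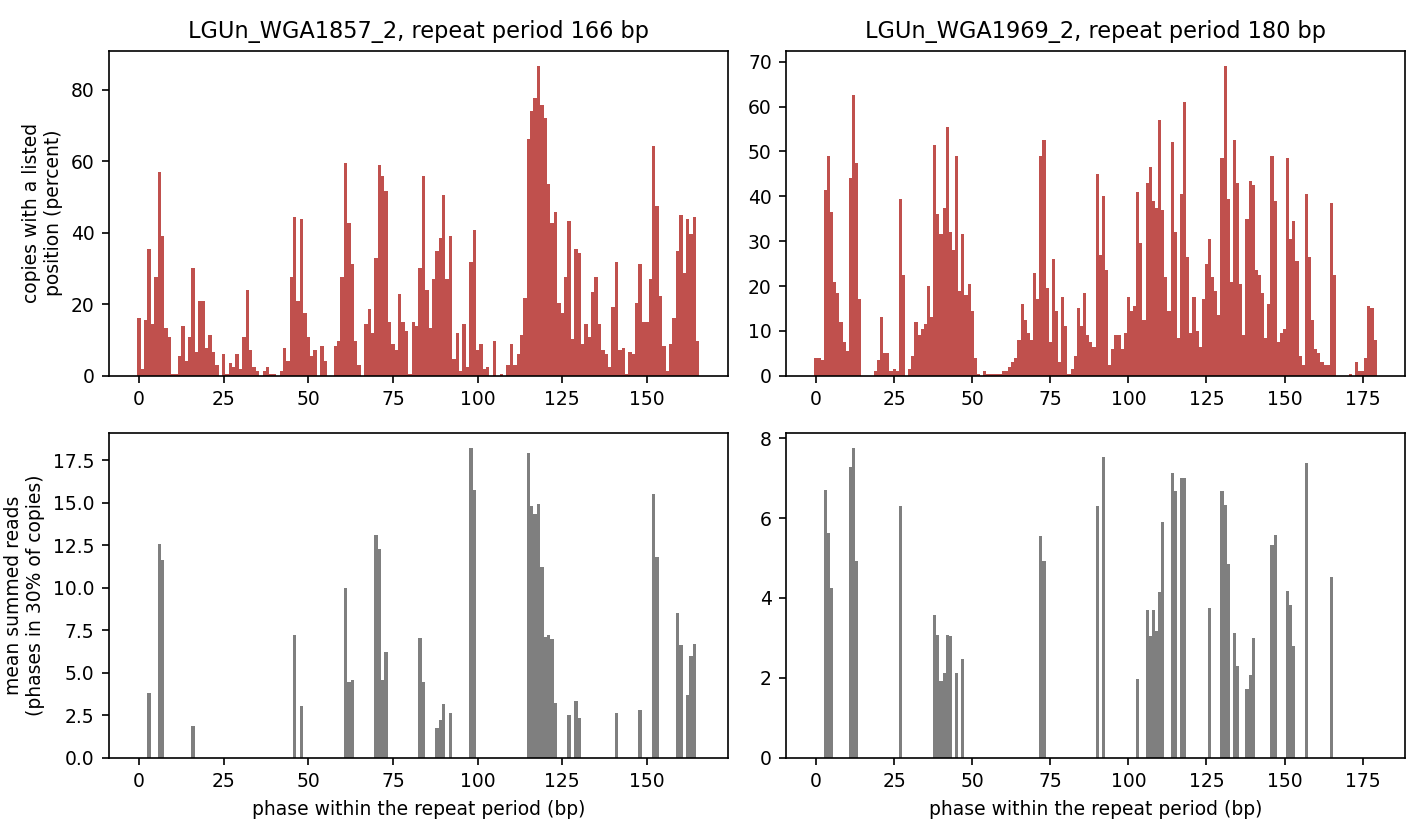
Percent of copies with a listed position (top) and mean summed reads (bottom, only phases listed in at least 30% of copies) by phase within the repeat period in bp, for LGUn_WGA1857_2 with a period of 166 bp (left) and LGUn_WGA1969_2 with a period of 180 bp (right). Listed positions gather at few phases, and mean depth among common phases ranges from 1.74 to 18.2 reads (left) and from 1.73 to 7.74 reads (right).

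Non-conversion, which the choice of members did not use, was close to that of the linkage groups. In replicate 1, 2389 of 6328469 reads of the members were unconverted, which is 0.0378% (95% Wilson interval 0.0363% to 0.0393%), against 10173 of 26744035 reads or 0.0380% (0.0373% to 0.0388%) in LG2 to LG10. In replicate 2, 4583 of 8001022 reads were unconverted in the members, which is 0.0573% (0.0556% to 0.0590%), against 20017 of 35867814 or 0.0558% (0.0550% to 0.0566%) in LG2 to LG10. Taken over the replicates without regard to their pairing, the mean was 0.0475% ± 0.0138 in the members and 0.0469% ± 0.0126 in LG2 to LG10 (SD, n = 2 each). The ratio of members to LG2 to LG10 was 0.992 in replicate 1 (interval 0.949 to 1.04, two-sided Fisher's exact test p = 0.751) and 1.03 in replicate 2 (0.994 to 1.06, Fisher's exact test p = 0.113). The difference between the sets was thus smaller than that between the replicates. Intervals and tests cover counting error only, since neighbouring positions are read from the same molecules.

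Comparing positions of like depth gave 8 tests, of which 1 passed. At deep positions of replicate 1 the rate was 0.0375% in the members and 0.0509% in LG2 to LG10, a ratio of 0.736 (0.645 to 0.840, Fisher's exact test, Benjamini-Hochberg adjusted p = 7.02e-05). In replicate 2 the same positions had 0.0605% in the members and 0.0601% in LG2 to LG10 (ratio 1.01, Fisher's exact test, adjusted p = 0.982). In replicate 1, 6 positions of LG2 to LG10 that passed the position test held 60 of its 295 unconverted reads. Leaving them out could only raise the ratio, because they were picked for their high non-conversion and none was in the members. Without them it was 0.923 (0.799 to 1.07, Fisher's exact test p = 0.275). The 89 members with a repeat period had 0.0419% and 0.0544% in replicates 1 and 2, against 0.0375% and 0.0574% in the other members (Fisher's exact test p = 0.210 and 0.457).

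**Figure D4:**
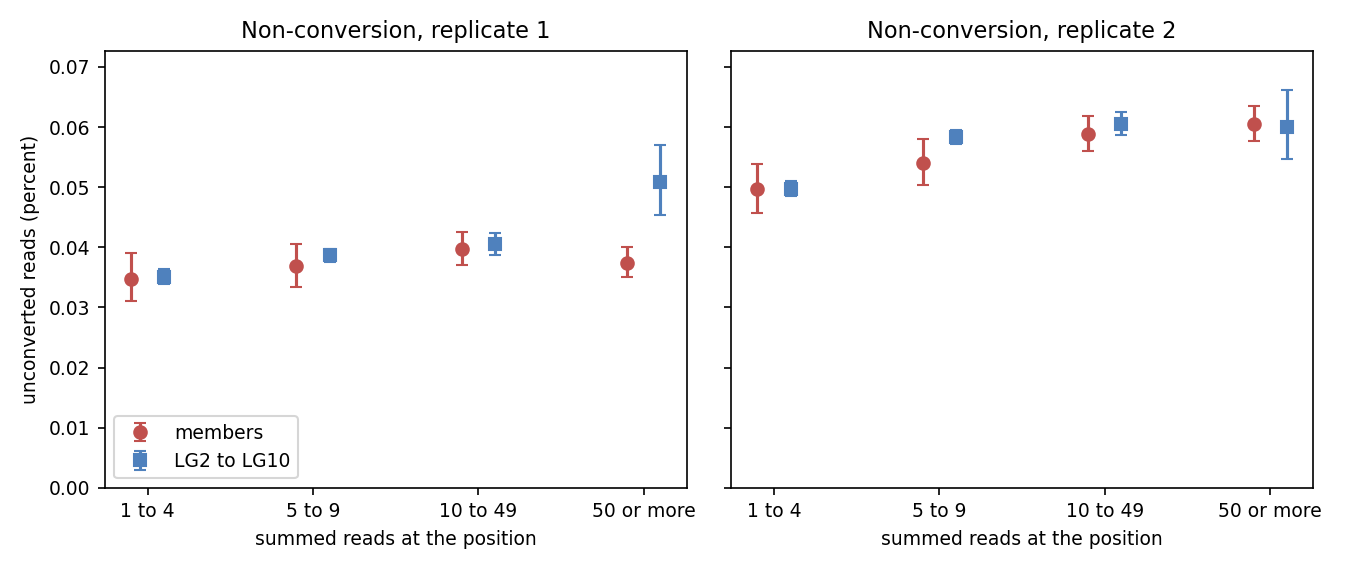
Percent of unconverted reads in 4 classes of summed reads per position, for members (circles) and LG2 to LG10 (squares) in replicate 1 (left) and replicate 2 (right), with 95% Wilson intervals as bars. The sets lie apart at deep positions of replicate 1, at 0.0375% in the members and 0.0509% in LG2 to LG10.

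No single member passed a test against the overall rate in both replicates. A two-sided exact binomial test of sequences with at least 1000 reads, adjusted over all sequences, called 0 of 589 members in both replicates, and 2 had an unadjusted p under 0.05 in both. Over all sequences 0.0% were called in both replicates and 0.0% in replicate 1, in which 24 of 589 members had an unadjusted p under 0.05. In replicate 2, 3 of 658 members were called, all of them higher, while 0.468% of all sequences were called. No unconverted read was found on 391 members (35.2%), whose median was 1044 reads. The one with most reads was LGUn_WGA618_2 with 7854 and 9022 reads, which allows a rate of up to 0.0178%.

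None of the 3 members called in replicate 2 was called in replicate 1. The test takes counts at neighbouring positions as independent, although they share molecules, so its p-values can be too small. LGUn_WGA227_2 had 19 unconverted of 29959 reads in replicate 1 and 62 of 41081 in replicate 2, which is 0.151% (exact binomial test, adjusted p = 3.26e-08). LGUn_WGA1792_2 had 5 of 10601 and 20 of 13758 (exact binomial test, adjusted p = 0.0409 in replicate 2). LGUn_WGA1495_2, a short member with 166 positions, had 0 of 1131 and 6 of 1226 (adjusted p = 0.0224, exact binomial test).

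Much of the excess on LGUn_WGA227_2 came from 1 place. Between positions 59032 and 59104, all 30 listed positions had at least 1 unconverted read in replicate 2. There was 1 such read at 11 positions and 2 at 19 positions, which gave 49 of 522 reads when summed over positions. A read that spans several of these positions is counted at each, so the 49 may come from few molecules. In replicate 1 only 25 of the 30 positions were listed, with 0 unconverted of 444 reads. The first positions of the run, where all replicate 2 reads were unconverted, had no reads in replicate 1. Of the 29 steps from 1 position of the run to the next, 15 were 2 bp and 14 were 3 bp. Within 200 bp of the run, all 58 other listed positions lay after it and none before it. At these positions, 0 of 723 reads in replicate 1 and 0 of 753 reads in replicate 2 were unconverted. Without this run, LGUn_WGA227_2 had 13 unconverted of 40559 reads in replicate 2, or 0.0321%. LGUn_WGA1792_2 had a run of 10 unconverted positions between 4795 and 4819 in replicate 2, with 10 of 111 reads, and 0 of 85 reads in replicate 1.

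**Figure D5:**
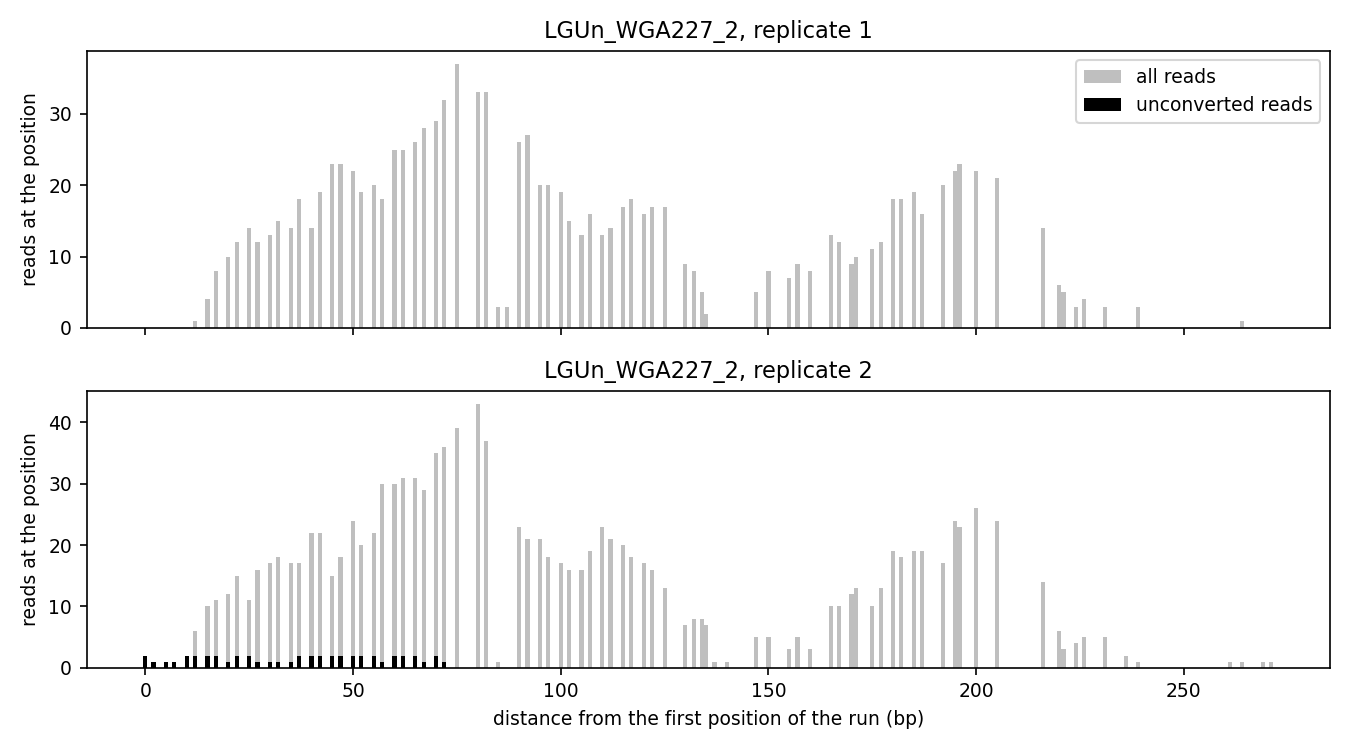
Reads (grey) and unconverted reads (black) at each listed position of LGUn_WGA227_2 by distance in bp from the first position of the run, in replicate 1 (top) and replicate 2 (bottom). In replicate 2 each of the 30 positions of the run has 1 or 2 unconverted reads, while replicate 1 has 0 of 444 at the 25 positions listed there.

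A one-sided exact binomial test was also applied to each position with 5 or more reads. In both replicates 0 of 214122 member positions passed, with 29 at an unadjusted p under 0.05 in both, while 0.000809% of all tested positions passed. In replicate 1, 0 of 275502 member positions passed (1241 unadjusted) and 0.00112% of all positions. In replicate 2, 1 of 380604 passed and 0.000338% of all positions. This was position 181157 of LGUn_WGA184_2, where 3 of 60 reads in replicate 1 and 5 of 80 in replicate 2 were unconverted, 5.71% over both (exact binomial test, adjusted p = 0.126 in replicate 1 and 0.00046 in replicate 2).

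Positions with an unconverted read in both replicates were mostly deep. There were 216 of them among the 1001558 member positions listed in both replicates, which is 0.0216% (95% Wilson interval 0.0189% to 0.0246%), and 80 of 8981306 in LG2 to LG10, which is 0.000891%. The median depth of these positions was 1075 reads in the members and 30 reads in LG2 to LG10. Deep positions made up 206 of the 216 in the members and 35 of the 80 in LG2 to LG10. Without them 10 remained in the members and 45 in LG2 to LG10. These are counts and not shares, since LG2 to LG10 had many more positions listed in both replicates. As a share of such positions, the remainder was still larger in the members, but it rests on only 10 positions and was not tested. At the 216 positions 0.125% of the reads were unconverted, against 0.557% at the 80 positions of LG2 to LG10. Every position in both sets was picked for an unconverted read in each replicate. These levels therefore depend on depth, which was higher in the members, and do not compare the non-conversion of the sets. The 216 positions lay on 88 members, with 21 on LGUn_WGA669_2 and 18 on LGUn_WGA450_2.

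The highest levels among these positions were found where few reads were counted. Position 7133 of LGUn_WGA312_2 had 1 of 2 reads unconverted in each replicate. Position 332725 of LGUn_WGA185_2 had 1 of 3 in replicate 1 and 1 of 7 in replicate 2. Both are too shallow for a level to be known.

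Unconverted positions lay closer together in the members when positions of all depths were included. In replicate 1, 126 of 2268 unconverted positions of the members (5.56%) had another within 10 bp, against 116 of 10076 (1.15%) in LG2 to LG10, a ratio of 4.83 (3.77 to 6.18, Fisher's exact test p = 6.79e-33). In replicate 2 it was 875 of 4208 (20.8%) in the members against 2493 of 19927 (12.5%) in LG2 to LG10, a ratio of 1.66 (1.55 to 1.78, Fisher's exact test p = 2.11e-41). This rested largely on deep positions and cannot be told apart from depth, by which the members were chosen. A deep position has more reads that can be unconverted, and deep positions were more frequent in the members and lay together. Without deep positions the share in replicate 1 was 4 of 1525 (0.262%) in the members and 83 of 9858 (0.842%) in LG2 to LG10. The ratio was 0.312 (Fisher's exact test p = 0.011), which rests on only 4 member positions. In replicate 2 the share was 395 of 2870 (13.8%) and 2424 of 19565 (12.4%), a ratio of 1.11 (Fisher's exact test p = 0.0403). Neighbouring positions share molecules, so these p-values cover counting error only. Runs of at least 5 neighbouring unconverted positions were found 31 times in the members in replicate 2 and 0 times in replicate 1, compared with 55 and 3 times in LG2 to LG10. In replicate 2 these runs held 4.78% of the unconverted positions of the members and 1.68% of those of LG2 to LG10. Deep positions were not left out of this comparison. Some member runs were deep, as at 8381 to 8396 of LGUn_WGA450_2 with 15 of 24507 reads unconverted in replicate 2. Others were shallow, as at 17743 to 17762 of LGUn_WGA190_2 with 8 of 18. In 20 of the 31 member runs, replicate 1 had no unconverted read in the same stretch.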

How the data were processed

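Per the labels and the study's methods, DNA of pooled eggs was bisulfite treated and sequenced in 2 replicates. The authors trimmed the reads (Trimmomatic 0.32 in the submitters' processing notes), mapped them with BSMAP to assembly version 3.0, took out duplicates with Picard and counted the reads at each position. The deposited tables hold raw read counts, unconverted and converted, in 4 columns without a header. Which column holds the unconverted reads was taken from its small sum, and depth is the sum of both columns. Mapping decides how reads from repeats are shared among copies and could not be varied.

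Depth, density, islands and non-conversion were computed per sequence with numpy 2.4.6 and pandas 2.3.3 in Python 3.11.15, tests with scipy 1.17.1 and figures with matplotlib 3.10.9. A position not listed in a replicate counted as 0 reads there. Rates have 95% Wilson intervals, ratios of rates have log-scale intervals, and a rate of 0 allows up to 3 counts of the total. Sequences with at least 1000 reads and positions with at least 5 reads in a replicate were tested against the overall rate of the replicate with exact binomial tests, Benjamini-Hochberg adjusted at 0.05 over all sequences or positions. The exact binomial tests were also run on simulated counts that were drawn independently. Neighbouring positions that share molecules were not simulated, so these runs do not cover that limit.

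The members and lists were chosen with earlier results of these data known. Named are, by rule, members with most positions or deep positions, with extreme density or non-conversion, at the limits of the choice or called by a test, and positions unconverted in both replicates. The members named for the deepest positions, repeat periods or replicate ratio were chosen after their values were seen. Sequences, strand and context were not analysed here, since no genome of this assembly was used.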

Additional observations from a re-analysis of the deposited data

How the results depend on the processing

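Of 35 alternatives, 22 kept the direction and the call over both replicates or, for a number without a direction, roughly its size. Among these, members with a median of 4 to 8 had a higher rate than LG2 to LG10 in replicate 2 alone (ratio 1.06, Fisher's exact test p = 0.00619). The ratio of non-conversion in members to LG2 to LG10, 1.01 as the mean of both replicates, fell below 1 with at least 5 reads (0.975) and at positions listed in both replicates (0.991), and was 0.992 to 1.03 when a replicate was left out. Called members numbered 0 in both replicates, and 0 to 3 when a replicate was left out. Called positions numbered 0, but 1 with at least 10 reads, and 0 to 1 when a replicate was left out. The clustering ratio, 3.24 as a mean, was 0.711 without deep positions and 1.66 to 4.83 when a replicate was left out. The 216 positions unconverted in both replicates became 10 without deep positions. Deep positions were 4.85% of member positions at 25 or more reads and 0.603% at 100 or more, against 0.239% and 0.0175% in LG2 to LG10. A median of 4 to 8 gave 485 members in place of 1112. Other choices changed which sequences were members more than how many there were. The mean in place of the median gave 1166, of which 786 were among the 1112. Using only positions listed in both replicates gave 1437, of which 912 were among the 1112. The median density was 114 to 124 per kb when a replicate was left out. For the following, the alternatives were chosen after seeing the data: a stricter match of at least 0.5 left 38 of the 89 members with a repeat period, and the replicate 1 ratio at deep positions was 0.923 without called positions, which were picked by their level. Apart from settings that use fewer reads or positions by construction, the cause was not tested. Members and LG2 to LG10 come from the same libraries and were compared within each replicate. No fit with a replicate block was made, since there is only 1 group of samples. At a median of 3 reads per position, the level of most single positions is not known.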
